A study of Homo sapiens with 37 samples.

Results

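Pyruvate stands at a fork between lactate and the mitochondrion, and the genes described here make it, export its reduced product, carry it into the mitochondrion and open or close its entry into the citric acid cycle. They are the 10 genes PKM, SLC16A1, MPC1, MPC2, PDHA1, PDHB, PDK1, PDK2, PDK3 and PDP1, chosen by symbol, and all 10 were found among the 32055 genes of the table. Transcriptomes were measured by SCRB-seq, a 3′ RNA-seq method with unique molecular identifiers (UMIs), in bulk lysates of K562, a human chronic myeloid leukemia line with erythroid features. The study compared clones electroporated with a Cas9 plasmid carrying a guide against the transcription factor ZBTB7A with clones given the plasmid without a guide, in order to examine the effect of ZBTB7A on metabolism. There were 26 libraries labelled KO and 11 labelled Control, with no further treatment named in the labels. Each clone was grown from a sorted single cell, but the labels do not say which libraries share a clone or a guide, so the p-values below measure only the spread between libraries, which may be technical.

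Pyruvate kinase M (PKM) catalyzes the last step of glycolysis and releases pyruvate. Lactate dehydrogenase reduces pyruvate to lactate, which leaves or enters the cell through the monocarboxylate transporter MCT1, encoded by SLC16A1, while the mitochondrial pyruvate carrier, a heterodimer of MPC1 and MPC2, brings pyruvate into the matrix. There the pyruvate dehydrogenase complex turns it into acetyl-CoA, and this complex is switched off when a pyruvate dehydrogenase kinase (PDK) phosphorylates its E1 alpha subunit and switched on again by a phosphatase such as PDP1.

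Total UMIs ranged from 1070250 to 4270901 in KO libraries (median 2030965) and from 563235 to 4710809 in Control libraries (median 3518944). Of 9 erythroid and K562 markers 8 were in the table, and their summed level was 2865 to 9396 CPM (counts scaled to the library total) in KO and 3943 to 8671 CPM in Control libraries. Of 6 myeloid markers, fixed for HL60, a promyelocytic leukemia line also used in the study, the table held CEBPE alone, at up to 0.583 CPM. The summed epithelial markers, led by EPCAM, were at 117 to 221 CPM in KO and 182 to 296 CPM in Control libraries, the lymphoid markers, led by CD3D, at 1.40 to 30.3 and 16.5 to 73.6 CPM, and the stromal markers at up to 5.78 CPM. The part of these markers in the results below was not tested, and in bulk lysates fewer cells of a kind and less RNA per cell cannot be told apart. The ZBTB7A transcript itself was at 5.82 ± 0.29 log2 CPM in Control (SD, n = 11) and 5.95 ± 0.26 in KO libraries (SD, n = 26), a log2 fold change of 0.12 (edgeR quasi-likelihood test, adjusted p = 0.331). A count at the 3′ end does not show whether the coding sequence was edited, so this level does not check the labels.

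The KO libraries were not spread evenly around their mean. Clustered on 8563 genes outside the pathway, 25 of them fell into 5 sets of 4 to 6 alike libraries, named KO-A (n = 4), KO-B (n = 6), KO-C (n = 6), KO-D (n = 5) and KO-E (n = 4), and the library with barcode GGCCAC stood alone. Correlations were taken after the mean of each gene in its group was subtracted. Within the KO sets the lowest correlation between libraries was 0.466 and between sets the highest was 0.227. The sets were cut from these same correlations, so the gap is no separate support for them. The Control libraries fell into a set of 6 (Control-A) and a set of 5 (Control-B), less clearly separated (mean silhouette 0.46, against 0.574 for the KO sets). Their lowest correlation within a set was -0.0266 and their highest between sets -0.208. These sets come from the data and not from the labels, and values by set are given as a description without a test.

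Levels are given as log2 CPM after TMM normalization with a prior count of 2. Because UMIs were counted at the 3′ end, a level does not scale with transcript length and the genes can be set side by side. In Control libraries PKM had the highest mean level at 348 ± 56.6 CPM (SD, n = 11), ahead of SLC16A1 at 249 ± 22.8 CPM and MPC1 at 148 ± 21.6 CPM. PDHA1 at 109 ± 17.6 CPM, MPC2 at 104 ± 30.5 CPM and PDHB at 93.3 ± 6.48 CPM followed. These SDs are between libraries and do not test the order of the genes. Within Control libraries the log2 ratio of PDHA1 to PDHB was 0.21 ± 0.19 (SD, n = 11), with 2 libraries below 0. The regulators of the complex were far lower, with PDK1 at 19.4 ± 2.59 CPM and PDP1 at 3.30 ± 1.09 CPM. PDK2 and PDK3 were near the limit of detection. In KO libraries the order was the same at the top (PKM 365 ± 67.7, SLC16A1 222 ± 26.6 and MPC1 130 ± 21.6 CPM), while MPC2 at 122 ± 27.5 CPM stood ahead of PDHA1 at 91.9 ± 11.8 CPM.

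A gene is said below to pass the test when its adjusted p in the edgeR quasi-likelihood test, Benjamini-Hochberg adjusted over the 10661 genes tested, was under 0.05. Of the 10 genes 8 had enough counts to be tested and 2 passed, PDHA1 and SLC16A1, both lower in KO, while 33.8% of all genes tested passed in either direction and 16.2% passed as lower. The share among these genes is thus close to that of the background. No member had a log2 fold change beyond 0.5 as well, the second threshold of the study, which 10.2% of all genes tested reached with an adjusted p under 0.05. At an unadjusted p under 0.05 there were 5 of the 8. The share of all genes at that looser limit was not counted and is at least 33.8%, so this count is no result about the members. Neither limma-voom nor DESeq2 called any with the fold limit. The median log2 fold change of the 8 genes was -0.0056, beside -0.0046 over all genes tested. In the plot of levels by library, KO and Control overlapped for every one of the 8 genes, and 0.281% of all genes tested had no overlap between the groups.

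**Figure D1:**
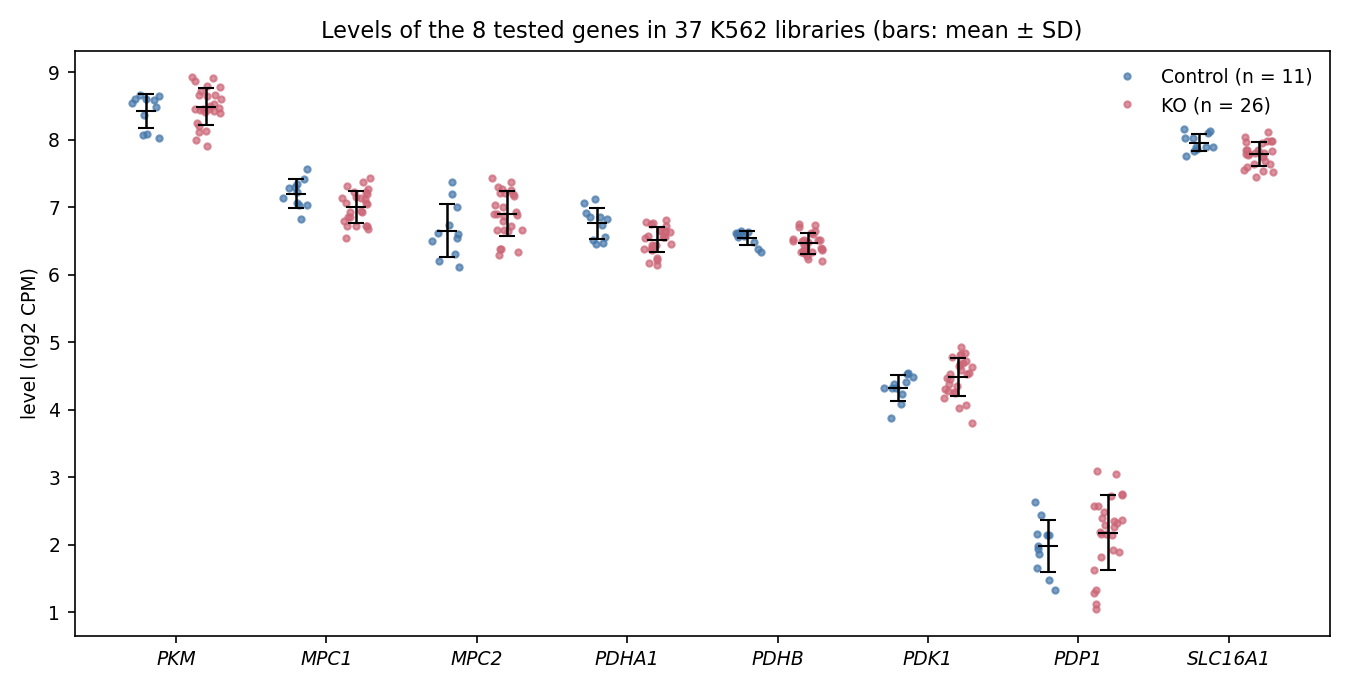
Level of the 8 tested genes in each library, in log2 CPM, with Control (blue, n = 11) and KO (red, n = 26) side by side and bars for the mean ± SD. The ranges of KO and Control overlap for every gene plotted, with 10 of 26 KO libraries below every Control library for PDHA1 and for SLC16A1 and 12 of 26 above every one for PDK1, and the lower KO means of PDHA1 (6.52 against 6.77) and SLC16A1 (7.79 against 7.96) are small beside the distance between genes.

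PKM (ENSG00000067225, chr15:72199029-72231819 on the minus strand of GRCh38), the source of pyruvate in this group, was measured with 301 to 1969 UMIs in KO and 199 to 1777 UMIs in Control libraries. Its level ran from 8.03 through a median of 8.54 to 8.66 log2 CPM in Control and from 7.91 through 8.47 to 8.93 in KO libraries. The KO libraries thus reached beyond the Control range at both ends, and 8 of 26 exceeded every Control library while 2 fell short of every one. The log2 fold change was 0.07 with a 95% interval of -0.11 to 0.25, and PKM did not pass the test (edgeR, adjusted p = 0.582). The direction of this small value was not stable: it was -0.03 without the 6 libraries of KO-C. The difference was -0.0036 when each set, and the lone library GGCCAC as if it were a set, had equal weight. PKM in GGCCAC was below every KO set mean, which lowered that difference. An equal weight for the sets alone was not taken. In the fit without GGCCAC the log2 fold change stayed positive, at 0.089 (edgeR, adjusted p = 0.462).

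PKM makes the M1 and M2 forms of the enzyme by including either of a pair of alternative exons, and M2 is the form usually found in proliferating cells. Both exons hold 167 bases and lie 910 spliced bases and 2 exons before the end of the transcript, so that counts at the 3′ end sum over both forms. They are shown because the count above cannot separate them. The sequences are from GENCODE release 44, exon 9 of PKM-201 (M1, chr15:72203022-72203188) and exon 9 of PKM-202 (M2, chr15:72202454-72202620), both 5′ to 3′ on the minus strand, with the 62 positions at which they differ in capitals.
M1 exon: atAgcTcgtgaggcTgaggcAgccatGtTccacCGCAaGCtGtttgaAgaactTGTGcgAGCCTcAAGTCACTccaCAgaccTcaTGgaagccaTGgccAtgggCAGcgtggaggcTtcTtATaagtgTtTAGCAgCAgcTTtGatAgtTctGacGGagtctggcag
M2 exon: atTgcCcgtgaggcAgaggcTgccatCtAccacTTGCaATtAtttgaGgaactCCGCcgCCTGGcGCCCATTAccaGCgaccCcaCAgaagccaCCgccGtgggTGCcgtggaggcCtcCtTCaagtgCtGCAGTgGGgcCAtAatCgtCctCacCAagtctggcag

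SLC16A1 (ENSG00000155380, chr1:112911847-112957593, minus strand), which moves lactate together with a proton, fell in KO libraries. It was counted with 221 to 1052 UMIs in KO and 144 to 1278 UMIs in Control libraries. In Control its level ran from 7.76 through a median of 7.89 to 8.16 log2 CPM, and in KO from 7.45 through 7.80 to 8.11. No KO library lay above the highest Control library and 10 of 26 lay below the lowest. KO differed from Control by a log2 fold change of -0.16 (SE 0.057, 95% interval -0.27 to -0.05, edgeR adjusted p = 0.0241).

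The lower level of SLC16A1 was not shared evenly among the KO libraries. The KO-B libraries had the lowest mean at 7.55 log2 CPM, KO-A, KO-E and KO-D had means of 7.75, 7.77 and 7.83, and KO-C at 8.01 was above both Control sets (7.94 and 7.98). Without KO-B the log2 fold change was -0.10 (edgeR, adjusted p = 0.129), and without KO-E it was -0.15 (adjusted p = 0.0542), both short of the threshold. The call was also lost, at a log2 fold change of -0.14 each time, without the Control library ATATAG (adjusted p = 0.0638), without the Control library CGGTGG (adjusted p = 0.0661) or without the Control library GGGATT (adjusted p = 0.0606). The antisense transcript SLC16A1-AS1 had 1471 UMIs in all, beside 22070 of SLC16A1. It overlaps the 5′ start of the gene, away from the 3′ end at which UMIs were counted. Whether the counting used strand is not given in the sources used here.

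The carrier subunits had log2 fold changes of opposite sign, and neither passed the test. MPC1 (ENSG00000060762, chr6:166364919-166383013, minus strand), an obligate subunit of the carrier, ran from 6.82 through a median of 7.23 to 7.57 log2 CPM in Control and from 6.55 through 7.05 to 7.44 in KO libraries, on 86 to 701 and 113 to 627 UMIs. In 7 of 26 KO libraries it was below the lowest Control library and in none above the highest. The log2 fold change was -0.19 (SE 0.078, edgeR adjusted p = 0.0622). MPC2 (ENSG00000143158, chr1:167916675-167937072, minus strand), its partner, ran from 6.11 through 6.60 to 7.37 log2 CPM in Control and from 6.30 through 6.90 to 7.44 in KO libraries, on 81 to 756 and 119 to 614 UMIs. Here 1 KO library was above the highest Control library and none below the lowest. Its log2 fold change was 0.26 (SE 0.12, edgeR adjusted p = 0.0936).

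Both subunits were close to the threshold, and single libraries or sets decided on which side they fell. MPC1 passed without the Control library ATGAAT (log2 fold change -0.22, edgeR adjusted p = 0.0319), without the KO-B library ATTACT (adjusted p = 0.0463), without the KO-C library GCTCGC (adjusted p = 0.0399), without the KO-B library TAAGAT (adjusted p = 0.0359), and when KO-B or KO-C was left out (adjusted p = 0.0161 and 0.0145). MPC2 passed without the Control library ATATAG, which had the highest Control level of this gene (log2 fold change 0.37, adjusted p = 0.0159), and without KO-B (0.36, adjusted p = 0.0196). In the libraries with AT-rich barcodes alone, the log2 fold change of MPC1 was -0.10 (adjusted p = 0.464). The first bases of MPC2 overlap those of DCAF6 on the opposite strand, which had 11709 UMIs in all beside 11090 of MPC2. This overlap (chr1:167935783-167937072) is at the 5′ start of both genes, away from the 3′ ends at which UMIs were counted. Without strand in the counting, any reads from the overlap cannot be told apart.

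The balance of the carrier subunits was then taken within each library. The log2 ratio of MPC1 to MPC2 was 0.55 ± 0.34 in Control (SD, n = 11) with 1 library below 0, and 0.10 ± 0.46 in KO (SD, n = 26) with 9 libraries below 0. It ran from -0.23 to 0.88 in Control and from -0.75 to 0.98 in KO libraries, and 5 KO libraries fell short of every Control library while 2 exceeded every one. By set, the mean ratio was 0.70 in KO-B, 0.20 in KO-A, 0.04 in KO-C, -0.09 in KO-E and -0.54 in KO-D, beside 0.59 in Control-A and 0.50 in Control-B. KO-D held both extremes: its mean of MPC1 was the lowest of the 5 KO sets at 6.72 log2 CPM and its mean of MPC2 the highest at 7.25. In KO-B the pair was reversed, with the highest mean of MPC1 at 7.23 and the lowest of MPC2 at 6.53. No test was made of this ratio, since the pair was chosen with results of these data known.

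**Figure D2:**
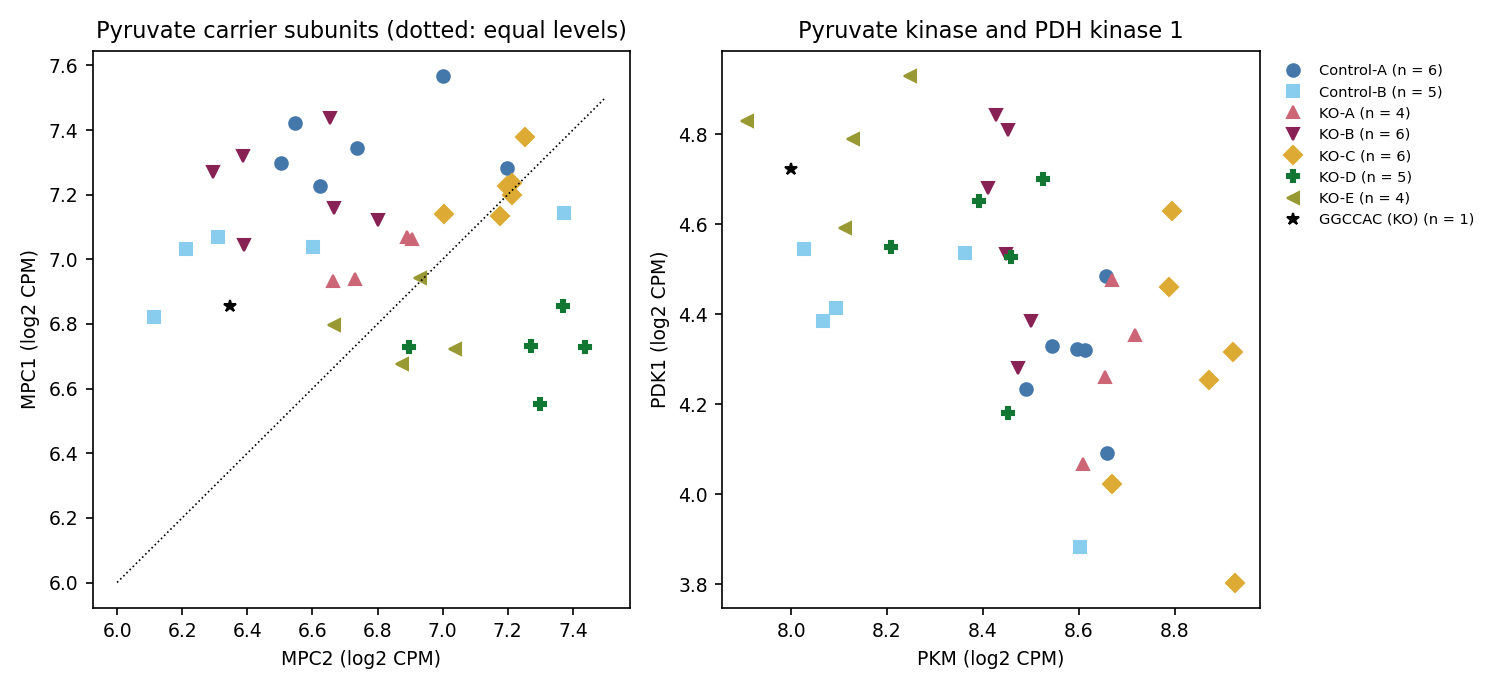
Left, the level of MPC1 against that of MPC2 in each library, and right, the level of PDK1 against that of PKM, all in log2 CPM, with a symbol for each set of alike libraries and a dotted line where MPC1 and MPC2 are equal. KO-D lies below the line (mean log2 ratio -0.54) and KO-B above it (0.70), beside Control-A at 0.59 and Control-B at 0.50, whose libraries are spread from -0.23 to 0.83.

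PDHA1 (ENSG00000131828, chrX:19343893-19361718, plus strand) encodes the E1 alpha subunit of pyruvate dehydrogenase, the subunit that the kinases phosphorylate, and fell in KO libraries. It was counted with 106 to 399 UMIs in KO and 77 to 518 UMIs in Control libraries. Its level ran from 6.46 through a median of 6.83 to 7.12 log2 CPM in Control and from 6.15 through 6.56 to 6.81 in KO libraries. In 10 of 26 KO libraries it was below the lowest Control library and in none above the highest. KO differed from Control by a log2 fold change of -0.24 (SE 0.069, 95% interval -0.37 to -0.11, edgeR adjusted p = 0.00609).

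The lower level of PDHA1 held in each of the KO sets against the Control mean. Set means were 6.31 in KO-D, 6.42 in KO-E, 6.54 in KO-A, 6.60 in KO-C and 6.72 log2 CPM in KO-B, and the Control mean was 6.77. The Control sets differed as well: Control-A had a mean of 6.94 and Control-B a mean of 6.56. Thus 3 of 5 KO sets were below both, while KO-C and KO-B lay above Control-B. PDHA1 passed the test without each of the 37 libraries in turn (adjusted p up to 0.0261) and without each KO set in turn (adjusted p up to 0.0349, without KO-D). None of these fits left out a Control set. MAP3K15, which overlaps the end of PDHA1 on the opposite strand, had 10 UMIs in all, beside 9124 of PDHA1.

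PDHB (ENSG00000168291, chr3:58427630-58433857, minus strand), the E1 beta subunit that forms the catalytic core with PDHA1, varied less. Its level ran from 6.35 through a median of 6.59 to 6.65 log2 CPM in Control and from 6.20 through 6.47 to 6.76 in KO libraries, on 54 to 423 and 104 to 376 UMIs. Of the KO libraries, 3 exceeded every Control library and 6 fell short of every one. The log2 fold change was -0.08 (SE 0.051, 95% interval -0.18 to 0.02, edgeR adjusted p = 0.208), and it did not pass. Without KO-B, the set with the highest mean (6.66 log2 CPM), it was -0.14 and passed (adjusted p = 0.0167). The log2 ratio of PDHA1 to PDHB within a library was 0.21 ± 0.19 in Control (SD, n = 11) and 0.06 ± 0.18 in KO (SD, n = 26), and it was below 0 in 2 of 11 and 10 of 26 libraries.

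Promoter sequences are shown for PDHA1, which passed the test, and for both carrier subunits, whose values pointed in opposite directions. They are the stretches of the 250 bases before a RefSeq start (GRCh38.p14) that no GENCODE exon covers, 5′ to 3′ on the strand of the gene, with GGGCGG on either strand in capitals, the core of the GC box. PDHA1 is from chrX:19343677-19343892, MPC1 from chr6:166383014-166383188 and MPC2 from chr1:167936113-167936246. The printed stretches hold 2, 3 and 2 matches. MPC2 has RefSeq starts farther out as well, whose stretch outside exons (chr1:167937073-167937152) holds 0 and is not printed.
PDHA1: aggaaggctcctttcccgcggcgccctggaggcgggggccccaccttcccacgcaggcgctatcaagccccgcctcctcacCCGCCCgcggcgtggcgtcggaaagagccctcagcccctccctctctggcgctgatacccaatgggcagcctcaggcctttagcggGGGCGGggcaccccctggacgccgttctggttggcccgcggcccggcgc
MPC1: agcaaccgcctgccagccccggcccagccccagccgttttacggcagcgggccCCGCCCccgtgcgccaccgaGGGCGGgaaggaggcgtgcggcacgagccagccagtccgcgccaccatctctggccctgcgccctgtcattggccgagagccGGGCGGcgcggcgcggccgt
MPC2: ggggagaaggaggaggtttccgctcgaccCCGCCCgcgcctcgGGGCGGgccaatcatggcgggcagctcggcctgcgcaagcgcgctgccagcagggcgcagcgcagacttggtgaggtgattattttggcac

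The RefSeq table matched 8 of the 10 genes with 13 windows of 250 bases, and GGGCGG was found on either strand in 11 of the 13, beside 42.6% of all 35116 windows. Some genes gave several windows, and those of MPC2 at chr1:167937073-167937322 and chr1:167937070-167937319 overlap. The 13 are thus not separate promoters, and no test was made. CACGTG, the E-box that MYC can bind, was found in 2 windows, those of PDHB and PDK2, beside 6.34% of all windows. ACGTG, the core of the hypoxia response element, which lies within CACGTG, was found in 4 windows, beside 18.5%. Neither PDHA1 nor the carrier genes held CACGTG or ACGTG in these windows.

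Among the kinases PDK1 (ENSG00000152256, chr2:172555373-172608669, plus strand), which hypoxia is known to induce, made up most of the counts. Summed over libraries, it had 1284 of 1443 kinase UMIs in KO and 662 of 702 in Control, with the fourth kinase PDK4 counted in. Its level ran from 3.88 through a median of 4.33 to 4.54 log2 CPM in Control and from 3.80 through 4.53 to 4.93 in KO libraries, on 10 to 93 and 29 to 89 UMIs. In 12 of 26 KO libraries it was above the highest Control library and in 1 below the lowest. With a log2 fold change of 0.16 (SE 0.096, 95% interval -0.03 to 0.35, edgeR adjusted p = 0.192), PDK1 did not pass. Set means ran from 4.25 in KO-C and 4.29 in KO-A to 4.79 log2 CPM in KO-E, and without KO-C the log2 fold change was 0.24 and passed (adjusted p = 0.035). In the plot of PDK1 against PKM, KO-C held the highest PKM mean (8.83) with the lowest PDK1 mean, and KO-E the lowest PKM mean (8.10) with the highest PDK1 mean.

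PDK2 (ENSG00000005882, chr17:50094737-50112152, plus strand), the most widely expressed kinase of the family, had 0 to 7 UMIs in KO and 0 to 5 in Control libraries, 59 and 22 in all. PDK3 (ENSG00000067992, chrX:24465244-24550466, plus strand) had at most 1 UMI in any library, 2 in all in KO and 1 in Control, and was at 0 in 24 of 26 KO and 10 of 11 Control libraries. A count of 0 allows a level of up to 2.80 CPM in the shallowest of these KO libraries and up to 5.33 CPM in the shallowest Control library. These limits are for counting error only and are scaled by total UMIs alone. Neither gene was tested, and a difference was not detectable at this depth.

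PDK4, which is induced on fasting and by fatty acids and is not among the 10 genes, showed how the minor kinases varied by set. It had 51 of the 336 kinase UMIs in KO-D but 1 of 227 in KO-B, where 5 of 6 libraries held none, and 17 of 702 in Control. As a share of the kinase UMIs of a library, PDK1 was at 93.4 ± 4.87% in Control (SD, n = 11) and 89.7 ± 7.06% in KO (SD, n = 26), with the lowest share, 67.8%, in the KO-D library TAAAGT, where PDK4 held 25.4%. PDK4 was under the filter on low counts and was not tested.

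**Figure D3:**
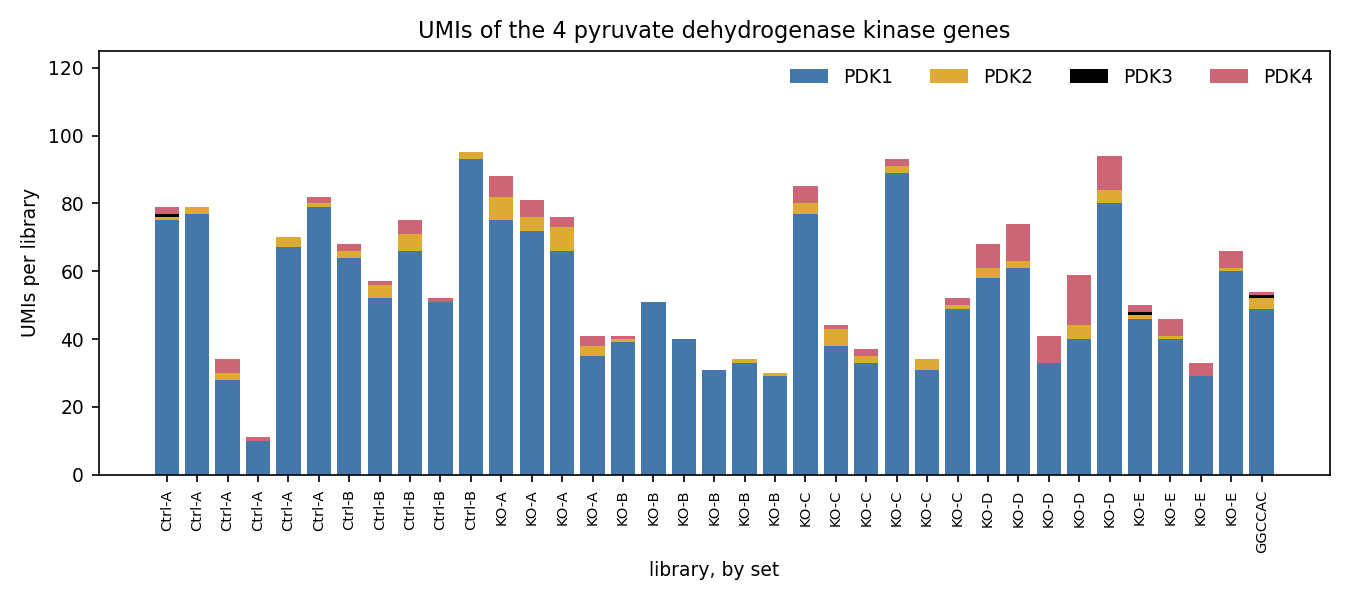
UMIs of the 4 pyruvate dehydrogenase kinase genes in each of the 37 libraries, stacked and ordered by set of alike libraries, on a linear axis that is not corrected for depth. PDK1 forms most of every bar, PDK4 has its largest share in KO-D (51 of 336 UMIs), ahead of KO-E (16 of 195) and KO-A (17 of 286), and 1 UMI of 227 in KO-B, and PDK3 appears in 3 libraries.

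PDP1 (ENSG00000164951, chr8:93857807-93926068, plus strand), the phosphatase that reactivates the complex, was counted with 2 to 28 UMIs in KO and 3 to 17 in Control libraries. Its level ran from 1.33 through a median of 1.98 to 2.63 log2 CPM in Control and from 1.05 through 2.28 to 3.09 in KO libraries, and 5 KO libraries exceeded every Control library while 3 fell short of every one. The log2 fold change of 0.41 was the largest of the 8 but also the least certain (SE 0.20, 95% interval 0.03 to 0.80, edgeR adjusted p = 0.1). It did not pass, except without KO-B, the set with the lowest mean (1.70 log2 CPM), when it was 0.52 (adjusted p = 0.0278). The log2 ratio of PDP1 to the summed kinases was -2.72 ± 0.62 in Control (SD, n = 11) and -2.72 ± 0.71 in KO libraries (SD, n = 26).

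The sets of alike libraries accounted for much of the spread among KO libraries for several of these genes. Over the 25 KO libraries in sets, the share of the variance in level that lay between sets was 90.0% for SLC16A1, 89.0% for PKM, 82.4% for MPC1, 78.1% for MPC2 and 66.5% for PDHA1. It was 54.2% for PDHB, 47.4% for PDK1 and 27.1% for PDP1. Over all genes tested the median share was 48.7%, with quartiles of 28.5% and 70.7%. These shares describe libraries that were grouped by their other genes, and no test was made.

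For each tested gene the most alike gene was sought among the 8604 tested genes that averaged 10 CPM or more, by Pearson's r of log2 CPM over the 26 KO libraries. Libraries of a set lie together, so these 26 points are not independent, and r is given as a description. The most alike genes were ERCC6L for SLC16A1 (r = 0.910), SLC16A9 for PKM (0.887), CDKN2C for MPC1 (0.887), FGF2 for MPC2 (0.859), SEPTIN6 for PDHA1 (0.811), RUSC1 for PDHB (0.762), MBNL2 for PDK1 (0.753) and ZKSCAN1 for PDP1 (0.687). Over the 11 Control libraries the same pairs had an r of 0.296, -0.939, 0.039, -0.348, -0.166, 0.694, 0.415 and 0.566 in that order. Each pair was picked for the highest r over KO libraries, which raises that r but not the r over Control libraries. PKM and SLC16A9 had r of opposite sign in the groups. The next genes for PKM did not: NOP16 (0.874 in KO) had 0.464 in Control, and HMGN3 (0.873) had 0.618.

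The other genes around pyruvate were taken from a list of 54, of which 52 were in the table and 37 were tested. Of the 37, 13 passed as lower and 2 as higher in KO, beside 16.2% and 17.7% of all genes tested. Their median log2 fold change was -0.06. Both subunits of lactate dehydrogenase, which interconverts pyruvate and lactate, were among the lower genes. LDHA ran from 10.29 through a median of 10.48 to 10.61 log2 CPM in Control and from 9.80 through 10.23 to 10.59 in KO libraries, with 14 of 26 KO libraries below the lowest Control library (log2 fold change -0.24, SE 0.075, edgeR adjusted p = 0.0119). LDHB changed by -0.12 (SE 0.043, adjusted p = 0.0285).

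GPT2 and PCK2 had the largest changes of the list. GPT2, the mitochondrial alanine transaminase, ran from 4.43 through 5.08 to 5.27 log2 CPM in Control and from 3.30 through 4.08 to 4.91 in KO libraries, with 20 of 26 KO libraries below the lowest Control library. Its log2 fold change was -0.92 (SE 0.13, edgeR adjusted p = 6.96e-07). PCK2, the mitochondrial phosphoenolpyruvate carboxykinase, changed by -0.50 (SE 0.12, edgeR adjusted p = 0.0011), and these were the only genes of the list past the fold limit of 0.5. PCK2 was only just past it: over 12 other settings its log2 fold change ran from -0.73 to -0.46. ME2, a mitochondrial malic enzyme that makes pyruvate from malate, rose by 0.16 (SE 0.051, adjusted p = 0.0115).

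In the citric acid cycle SDHB, the iron-sulfur subunit of succinate dehydrogenase, was lower in 25 of 26 KO libraries than in any Control library. It ran from 8.21 through 8.36 to 8.52 log2 CPM in Control and from 7.65 through 7.98 to 8.22 in KO libraries (log2 fold change -0.42, SE 0.048, edgeR adjusted p = 6.77e-09). SDHA, SUCLG2 and FH also passed as lower, with log2 fold changes of -0.20, -0.21 and -0.15. So did ACLY (-0.20), which makes cytosolic acetyl-CoA from citrate, LIAS (-0.26), which makes the lipoate of the complex, and the outer membrane channels VDAC2 (-0.17) and VDAC3 (-0.29). The calls of LIAS, LDHB and SUCLG2 were lost without 9, 5 and 1 of the 37 libraries in turn.

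The remaining subunits of the pyruvate dehydrogenase complex did not pass the test. DLAT, its E2 subunit, had a log2 fold change of 0.05 (95% interval -0.08 to 0.18), DLD, its E3 subunit, one of -0.01 (-0.08 to 0.07), and PDHX, which binds E3, one of -0.01 (-0.12 to 0.11). PDPR, the regulatory subunit of the phosphatase, rose by 0.19 (SE 0.063, edgeR adjusted p = 0.0199), and PDP2, its other catalytic subunit, was at 0.03 (adjusted p = 0.837). The difference between PDHA1 and these subunits was not itself tested. BSG, the chaperone of MCT1, was at 0.02 (adjusted p = 0.891), and SLC16A3, which encodes the lactate exporter MCT4, had 43 UMIs in all in KO and 17 in Control libraries and was under the filter.

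**Figure D4:**
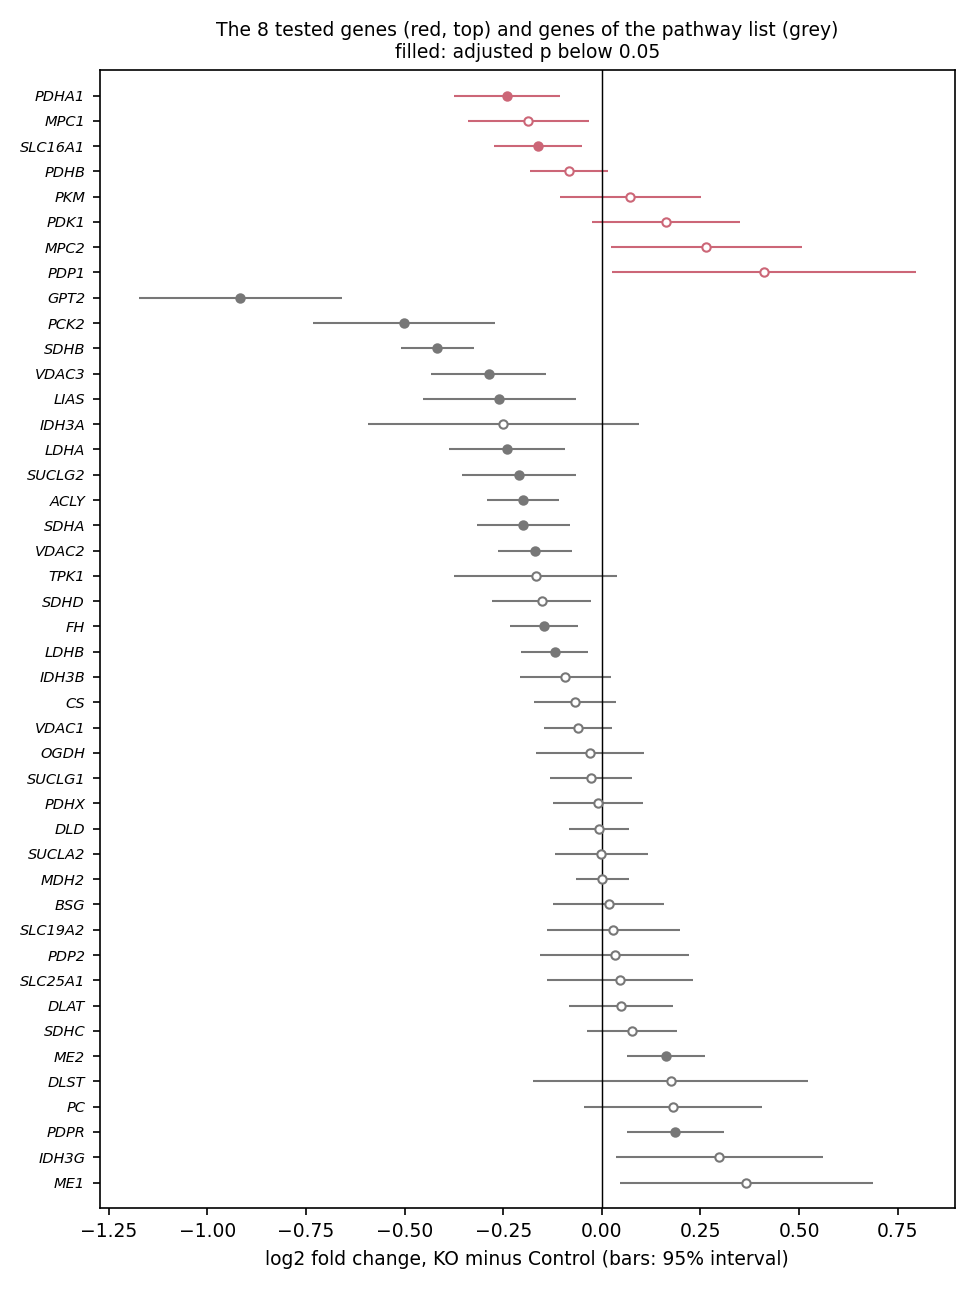
Log2 fold change of KO over Control for the 8 tested genes (red) and the tested genes of the pathway list that are reported here (grey), with bars for the 95% interval and filled points where the adjusted p was under 0.05. PDHA1 (-0.24) and SLC16A1 (-0.16) are the filled red points, and GPT2 (-0.92), PCK2 (-0.50) and SDHB (-0.42) lie farthest to the left.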

How the data were processed

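Bulk SCRB-seq libraries of K562 were analysed, 26 labelled KO and 11 Control. The authors mapped reads to hg38 with STAR 2.6.0a, as the submitters' processing notes name it, counted UMIs per Ensembl gene with zUMIs (version not given in the sources used here) and deposited UMI counts without normalization. Columns were matched to samples by barcode, and 31323 of the 32055 identifiers had a symbol. Group was the single term of a robust edgeR quasi-likelihood model (edgeR 4.0.16 under R 4.3.3) after the tool's own low-count filter and TMM scaling, with Benjamini-Hochberg adjustment over 10661 genes. SEs were derived from the F statistic, and intervals are normal 95% intervals. The fit was run on simulated counts with known changes. These were drawn independently for each library, without sets of alike libraries, so they do not check the p-values given here. As a look for duplicated libraries, the smallest chi-square per degree of freedom over the 380 pairs within a group was 1.139. No threshold or test was applied, and this does not show that libraries come from separate clones or cultures.

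The genes and lists were chosen with earlier results of these data known. Named were the 10 genes, list genes that passed (1 of them is not reported here), the most alike gene of each tested gene, and ZBTB7A. Further list genes (DLAT, DLD, PDHX, PDP2, BSG, PDK4 and SLC16A3) were named for their roles, with their values seen. Correlations between the 10 genes over KO libraries had been planned and are not given, since these libraries fall into sets. Libraries were clustered within each group on the tested genes of higher count outside the pathway. Positions are from GENCODE release 44, later than the annotation counted. Alternatives were limma-voom (limma 3.58.1), DESeq2 1.42.0, other normalizations and filters, barcode class, 7 surrogate variables (sva 3.50.0), thinning to the smallest total, and libraries or sets left out. UMI counts set the precision, and counting intervals cover counting error only.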

Additional observations from a re-analysis of the deposited data

How the results depend on the processing

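No paired analysis was possible because the labels give no replicate numbers. The count of 2 members that passed was 1 with library size alone (PDHA1) and 4 with surrogate variables (MPC1 and MPC2 as well). It was 0 with the fold limit and 0 after thinning to the smallest total. After thinning, 3 members had an unadjusted p under 0.05 in edgeR, and the share of all genes at that limit was not counted. The count of members that passed ran from 1 to 3 without each library in turn. By alternatives chosen after seeing the data it was 5 without KO-B, 4 without KO-C and 1 without KO-E. The 1085 genes called with the fold limit became 1720 with no filter on low counts, 672 with a mean of at least 10 CPM, 621 after thinning and 3606 by adjusted p alone, and ran from 1044 to 1126 without each library in turn. The 15 list genes that passed became 10 with AT-rich barcodes alone, 11 with library size alone and 11 with no filter on low counts. They became 6 after thinning and 2 with the fold limit, and ran from 12 to 16 without each library in turn. PKM reversed to -0.0324 without KO-C and to -0.0036 with equal weight for each set and for the lone library GGCCAC. The causes were not tested, except that thinning leaves fewer UMIs and 7867 genes tested.

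PDHA1 kept its call in 11 of 12 other settings and lost it after thinning (log2 fold change -0.23, adjusted p = 0.073). SLC16A1 lost its call with library size alone (-0.13, adjusted p = 0.0764) and after thinning (-0.12, adjusted p = 0.196). MPC2 passed with limma-voom (0.30, adjusted p = 0.0453). In all 12 settings MPC1 stayed below and MPC2 above 0. PDP1 was under the filter in the thinned counts, at the 10 CPM minimum, without KO-A, KO-C or KO-D, and without 9 of the 37 libraries. Depth limits PDK2, PDK3 and PDP1 most.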

Other observations

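Barcode composition was unequal between the groups: 12 of 26 KO libraries had GC-rich barcodes (at least 4 G or C of 6 bases), against 1 of 11 Control libraries. Among KO libraries, MPC1 averaged 7.09 ± 0.25 log2 CPM with AT-rich (SD, n = 12) and 6.92 ± 0.22 with GC-rich barcodes (SD, n = 12), beside 7.20 ± 0.19 in the AT-rich Control libraries (SD, n = 8). PKM averaged 8.59 ± 0.17 and 8.40 ± 0.27 in the same KO libraries, beside 8.45 ± 0.25 in Control. SLC16A1 went the other way, with 7.71 ± 0.18 in AT-rich and 7.86 ± 0.14 in GC-rich KO libraries, beside 7.93 ± 0.12 in Control. With AT-rich barcodes alone the log2 fold change was -0.25 for PDHA1 (edgeR, adjusted p = 0.0363) and -0.20 for SLC16A1 (adjusted p = 0.0314). In these fewer libraries LDHA (edgeR, adjusted p = 0.0512), SDHA (0.154), VDAC3 (0.0569), LIAS (0.0788) and PDPR (0.0777) of the list lost their calls. The other list genes reported here as passing kept theirs. The part of the barcodes in these levels was not tested apart from the sets, which they cross in part: KO-B held 5 AT-rich libraries of 6 and KO-E none of 4.

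The KO library GGCCAC, which joined no set, had PDHA1 at 6.22 and MPC2 at 6.35 log2 CPM, both near the low end of the KO range, while its SLC16A1 at 7.98 and PDK1 at 4.72 were near the high end. Without it PDHA1 and SLC16A1 kept their calls (edgeR, adjusted p = 0.00756 and 0.0177).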
